A study of Homo sapiens with 12 samples.

Results

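Untreated HSC-1 and untreated A431 were compared to describe what set the lines apart before any drug acted. Both are established human cell lines, labelled as skin squamous carcinoma. The comparison used the 6 arrays of cells kept for 72 h in DMSO, the vehicle: 3 of A431 and 3 of HSC-1, out of 12 arrays in the series. The other 6 arrays, 3 of each line, came from cells given 100 nM everolimus, an inhibitor of mTOR complex 1, for the same 72 h. They entered the same model fit, and so shared its estimate of the spread, its filter and its choice of probe sets, and the difference between the lines was read on them as well. Nothing in the labels tells if arrays of one group hold RNA of different cultures, and p-values therefore reflect no more than the array-to-array spread, possibly a technical one. Each line is a single line, so the results describe A431 and HSC-1 and no wider class of tumours. The medium held 10 or 20% serum, which the labels do not tie to a line, and its part in the differences was not tested.

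Squamous carcinoma cells descend from keratinocytes, which sit on a basement membrane while they divide and switch keratins as they move outward, then seal themselves into a cornified envelope. Signals from the epidermal growth factor receptor drive their growth through the ERK and PI3K pathways, and the mTOR kinase lies downstream of PI3K. Lines from the same kind of tumour can keep different amounts of this program and can add mesenchymal, inflammatory or interferon-driven genes.

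Values are log2 expression after robust multi-array averaging, so 1 unit is a 2-fold difference, and a difference is given as HSC-1 minus A431 unless a fold is named. The table carried no detection flags, so a value was read against the median of its own array over all 53617 probe sets, which lay between 4.34 and 4.39. Where a gene lay below that median in a line its level there is close to background, and the size of its fold depends on that background. Whether fewer cells expressed a gene or each cell held less of its RNA cannot be told apart in bulk RNA. Over all probe sets, DMSO arrays of the same line correlated with r from 0.989 to 0.992, and arrays of different lines from 0.957 to 0.960. Of 14884 genes with a named probe set, 10613 were tested and 4271 lay too low. With limma and p-values adjusted by Benjamini-Hochberg over all of these, 6303 genes passed an adjusted p of 0.05, which is 59.4% of those tested. Of these, 3100 were higher in HSC-1 and 3203 higher in A431, with a median difference over all tested genes of 0.0048. The arrays of the lines did not overlap for 65.3% of the genes tested. Counts of genes that passed are to be read against that 59.4%. Because so many passed, most counts that follow are of genes that passed and also differed at least 2-fold: 618 were higher in HSC-1, 5.82% of those tested, and 565 higher in A431, 5.32%. Counts of genes at least 2-fold different within a list are to be read against these shares. At least 8-fold differences numbered 29 toward HSC-1 and 44 toward A431.

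The largest differences toward HSC-1 were those of EDN1 and IL24, which encode secreted proteins. EDN1, which encodes the vasoconstrictor peptide endothelin-1, stood at 3.95, 3.67 and 3.63 on the A431 arrays and at 9.35, 9.20 and 9.20 on the HSC-1 arrays. It lay below the array median throughout A431 and among high values throughout HSC-1, a difference of 5.50 ± 0.0821 (SE), or 45.2-fold (adjusted p = 5.95e-19, limma). IL24, a cytokine of the interleukin-10 family, read 3.29, 4.18 and 3.54 in A431 and 8.54, 8.52 and 8.38 in HSC-1, again below the median in A431 alone, with a 28-fold difference. CCND2, the cyclin D2 gene, differed 25.1-fold, from a mean of 4.44 ± 0.23 (SD, n = 3) in A431 to 9.09 ± 0.04 (SD, n = 3) in HSC-1. KLK5, a serine protease that starts the kallikrein cascade of the skin surface, was 21.3-fold higher in HSC-1. TNC, the matrix glycoprotein tenascin-C, was 17.9-fold higher and varied little, between 4.59 and 4.63 in A431 and between 8.75 and 8.8 in HSC-1. The others of the 12 largest toward HSC-1 were CPA4, a carboxypeptidase (14.9-fold), CEMIP, which degrades hyaluronan (16-fold), HS3ST3B1, a heparan sulfate sulfotransferase (13.3-fold), the cancer-testis gene PASD1 (19-fold), SESN3 (11.8-fold), and the zinc finger genes ZNF117 (19.8-fold) and ZNF100 (11.6-fold).

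In the opposite direction ADGRF1, an adhesion G protein-coupled receptor, led with 9.91, 10.00 and 9.95 in A431 and 5.06, 5.34 and 4.78 in HSC-1. The HSC-1 values were above the array median yet 29.7-fold lower, with no overlap. PLTP, the phospholipid transfer protein, was 26.5-fold higher in A431, at a mean of 10.09 ± 0.03 (SD, n = 3). NMU, the neuropeptide neuromedin U, was 22.1-fold higher, and IGFBP3, which binds insulin-like growth factors outside the cell, 19.1-fold higher. CYB5A, cytochrome b5, was 26.1-fold higher and GPD2, the mitochondrial glycerol-3-phosphate dehydrogenase, 21.4-fold higher, and both lay below the median on all 3 HSC-1 arrays. TRIM31, a ubiquitin ligase, differed 21.5-fold. PRTFDC1 (18.9-fold) and TMEM47 (17.7-fold) completed the 12 together with the interferon-stimulated genes BST2, GBP4 and IFI44. The 24 genes were chosen only among genes that passed the test and whose arrays did not overlap, so neither is a result about them. The highest adjusted p among them was 1.77e-11 (limma). Of the 12 higher in HSC-1, 8 fell short of the array median throughout A431, and of the 12 higher in A431, 7 did so throughout HSC-1.

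**Figure D1:**
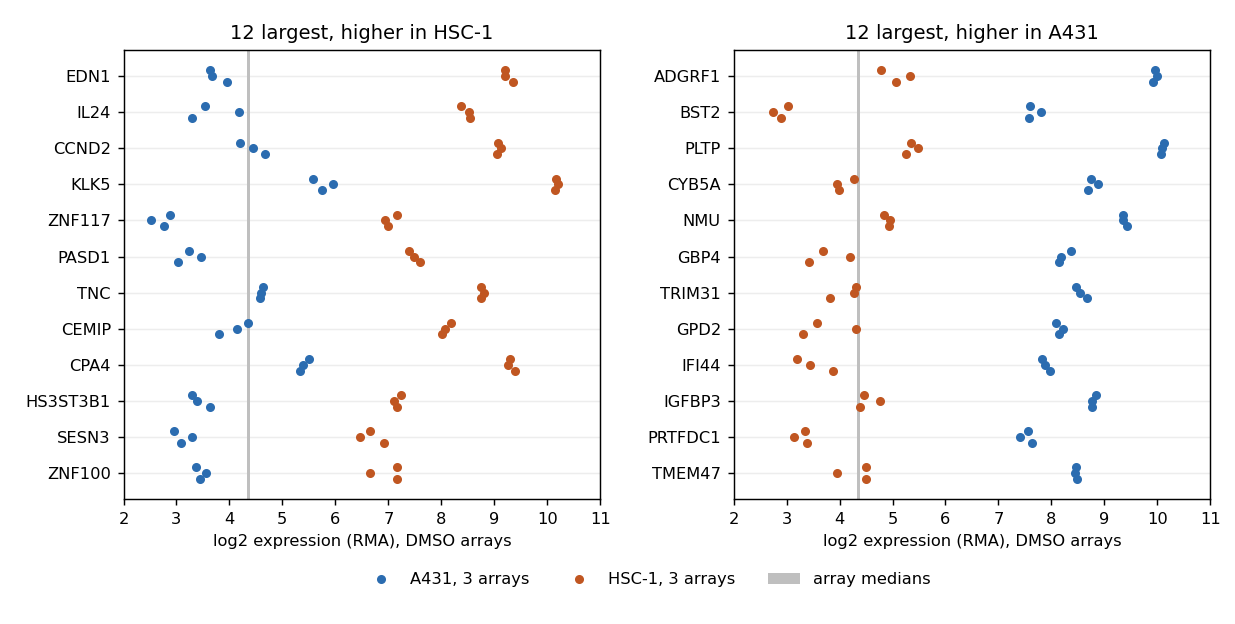
Log2 expression of the 12 genes with the largest difference in each direction, one point per DMSO array, with A431 in blue and HSC-1 in orange and a grey band for the array medians. No gene has overlapping arrays, which was a condition of the choice. Many of the low values lie left of the band, as for EDN1 in A431 and BST2 in HSC-1.

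Both lines carried the markers of squamous keratinocytes that the array could read. Of 14 such markers 6 had a named probe set (KRT5, KRT14, KRT15, DSG3, DSC3 and SFN), and all 6 were above the array median on every DMSO array, with a mean level over the 6 between 9.79 and 9.82 on the A431 arrays and between 9.34 and 9.37 on the HSC-1 arrays. TP63 and CDH1 had no named probe set and were not analysed here. Basal keratins were near equal: KRT14 was at 9.96 in A431 and 10.10 in HSC-1, and KRT5 at 9.35 and 9.48. Both differences passed the test (adjusted p = 0.0032 and 0.0214, limma) at 1.1-fold and 1.09-fold, and that of KRT5 lost its call in several alternative fits. KRT15, a keratin of less differentiated basal cells, departed from its partners. It read 9.57, 9.55 and 9.53 in A431 and 7.11, 7.09 and 7.06 in HSC-1, so it was 5.51-fold higher in A431. The mucosal keratins KRT4 and KRT13 were also higher in A431, by 4.79-fold and 2.42-fold, as was KRT80 by 2.54-fold. KRT1, the keratin of cells that have left the basal layer, ran the other way, at 3.01, 3.10 and 2.88 in A431 and 5.45, 5.23 and 5.21 in HSC-1, which put it below the array median in A431 alone. Among simple epithelial keratins only KRT18 of 5 tested passed, 1.33-fold higher in HSC-1, while KRT8 differed by -0.05 ± 0.13 (SE) and KRT19 by 0.02 ± 0.17 (SE), neither past the test.

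Genes of the cornified envelope, the protein shell of dead surface keratinocytes, had members higher in either line. Of 63 in the list, 28 were tested and 16 passed, close to the 59.4% of all genes, 9 higher in HSC-1 and 7 higher in A431. At least 2-fold differences numbered 4 and 3, beside 5.82% and 5.32%. CALML3, a calmodulin-like protein of epithelia, was 11.4-fold higher in A431, SCEL, the sciellin gene, 7.52-fold and CALML5 6.32-fold. S100A7, the antimicrobial protein psoriasin, was 5.77-fold higher in HSC-1. It moved with S100A8 (2.45), SPRR1B (2.45) and SPRR1A (2.21), 3 genes picked after their values were seen. SPRR1B averaged 3.92 in A431, below the array median. The SPRR1 genes are near copies of each other, and how far their probe sets share signal was not tested.

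**Figure D2:**
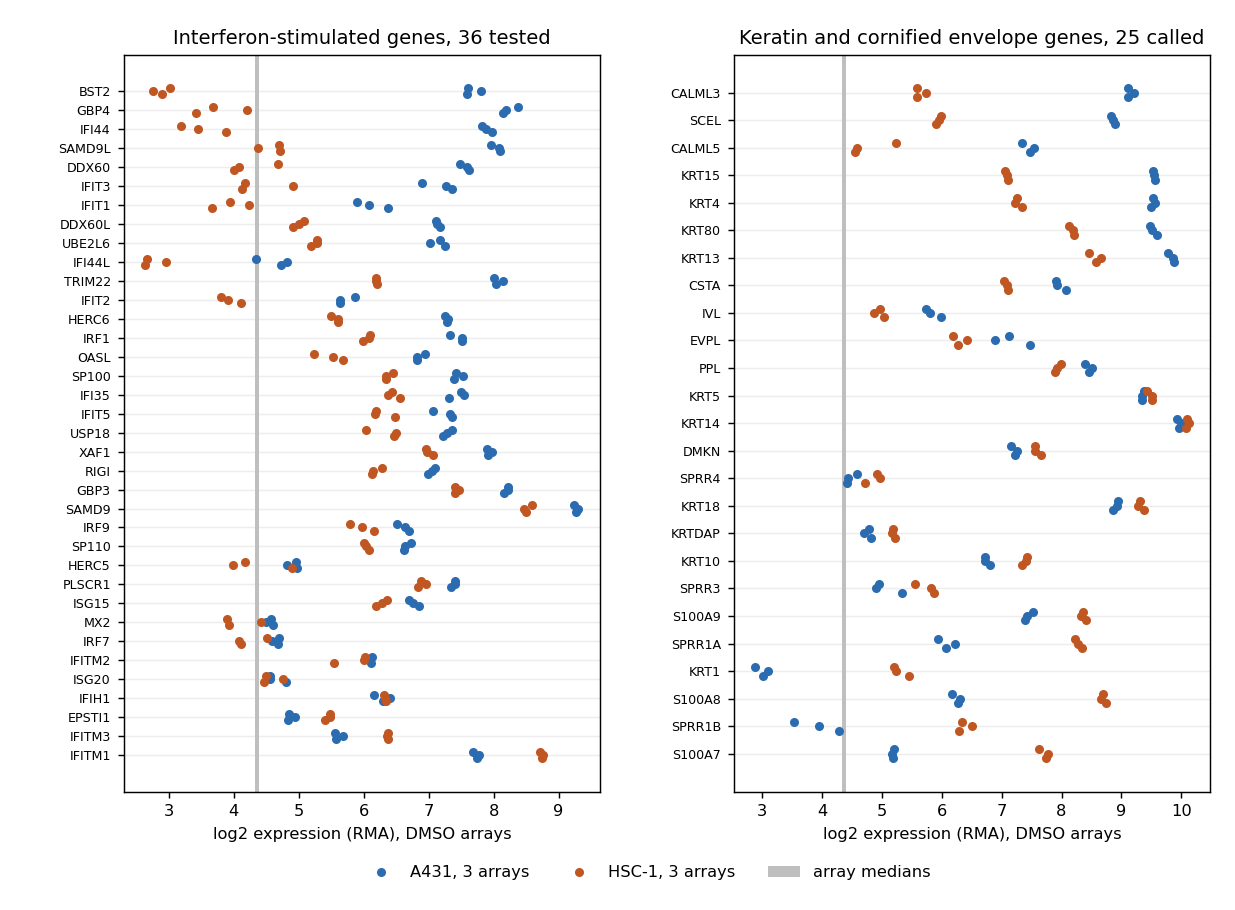
Log2 expression per DMSO array of the 36 tested interferon-stimulated genes and of the 25 keratin and cornified envelope genes that passed an adjusted p of 0.05, sorted by their difference, with A431 in blue, HSC-1 in orange and the array medians in grey. Blue points lie to the right of orange ones for most interferon genes, whereas the second panel divides, with CALML3 at the top and S100A7 at the bottom.

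Of 28 tested transcription factors of squamous and other epithelia, 23 passed, beside 59.4% of all genes, 12 higher in HSC-1 and 11 higher in A431. Of these, 3 and 4 differed at least 2-fold, beside 5.82% and 5.32% of all genes. SOX2, a stem cell factor often amplified in squamous tumours, stood at 5.11, 5.2 and 4.92 in A431 and at 8.04, 8.14 and 8.14 in HSC-1. The groups did not overlap and the difference was 3.03 ± 0.0985 (SE), or 8.16-fold. TP73, the p53 relative, was 5.41-fold higher in HSC-1, and TBX18, a T-box factor, 6.07-fold higher with A431 below the array median. GATA3, a regulator of epidermal and breast epithelium, was 9.21-fold higher in A431, where it read 8.37, 8.29 and 8.37 against 5.35, 5.32 and 4.75. GRHL3 (-2.29) and OVOL1 (-1.27), which act in epidermal differentiation and were picked after their values were seen, were also higher in A431. Of 22 tested HOX genes, which encode position along the body, 13 passed, beside 59.4% of all genes, 11 higher in A431 and 2 higher in HSC-1, with a median difference of -0.278. At least 2-fold higher in A431 were 2 (HOXD10, 2.96-fold, and HOXD9, 2.30-fold), beside 5.32% of all genes, and none was at least 2-fold higher in HSC-1.

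Genes of the mesenchymal program, which motile and matrix-forming cells use, were more often higher in HSC-1. Of 22 tested mesenchymal program genes, 10 were at least 2-fold higher in HSC-1 and 1 in A431, with a median difference of 0.877, beside 5.82% and 5.32% and a median of 0.0048 over all genes. After TNC the largest were THBS1, thrombospondin-1, at 8.64, 8.69 and 8.67 in A431 and 10.97, 10.92 and 10.91 in HSC-1 (4.8-fold), and TAGLN, the actin-binding transgelin (4.22-fold). FN1, fibronectin (2.01), L1CAM (1.98), the connective tissue growth factor gene CCN2 (1.76) and the tropomyosin gene TPM1 (1.73) followed. They were picked after their values were seen. L1CAM averaged 3.95 in A431, below the array median. IGFBP3 was the 1 member at least 2-fold higher in A431. VIM, the vimentin gene that the list's name rests on, differed by -0.15 ± 0.14 (SE), which did not pass and became 0.20 when its 3 probe sets were averaged. SNAI1, also picked afterwards and low in both lines (4.70 in A431 and 4.45 in HSC-1), did not pass either, at -0.25. Its relative SNAI2, picked afterwards too, passed toward HSC-1, at 9.90 in A431 and 10.72 in HSC-1 (0.82). ZEB1 lay too low to test, and CDH2 had no named probe set. The desmosomal linker DSP was 2.36-fold higher in HSC-1, at 11.03, 11.01 and 10.96 against 9.79, 9.79 and 9.71, while the plaque proteins JUP and PKP2 were 1.51-fold and 1.99-fold higher in A431. Tight junction genes divided: OCLN, occludin, was 8.17-fold higher in A431, CLDN7 3.10-fold and EPCAM 2.14-fold, and CLDN16 was 4.41-fold higher in HSC-1. Of 35 genes listed as integrins, laminins and their partners only DST, the gene of the hemidesmosomal plakin dystonin, was read, 1.45-fold higher in HSC-1, and no integrin or laminin gene was.

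EGFR, the epidermal growth factor receptor, was among the brightest named probe sets in both lines. It read 11.67, 11.63 and 11.64 in A431 and 12.54, 12.54 and 12.49 in HSC-1. Among the 16098 probe sets with a gene symbol it ranked 8, 7 and 6 in A431 and 1 on every HSC-1 array. Probe sets without a symbol were not ranked. HSC-1 was thus higher by 0.88 ± 0.0347 (SE), or 1.84-fold (adjusted p = 8.58e-14, limma), with no overlap. The highest value of a named probe set on any A431 DMSO array was 12.33. Both levels thus lay close to the top of the range of named probe sets, and saturation was not tested. ERBB3, a partner receptor, was 2.61-fold higher in A431, and ERBB2 had no named probe set. Ligands of the ERBB receptor family fell on different sides. NRG4, a neuregulin, read 8.73, 8.36 and 8.45 in A431 and 5.02, 4.55 and 4.90 in HSC-1, a 12.9-fold difference. EREG, epiregulin, was 8.52-fold higher in A431, and BTC, betacellulin, 2.74-fold higher with HSC-1 below the array median. The HSC-1 mean of EREG, 4.34, lay below the array median as well. HBEGF (1.09) and NRG1 (0.98) were higher in HSC-1. ERRFI1, a feedback inhibitor that binds the receptor, was 3.16-fold higher in HSC-1, and LRIG1, another inhibitor, was higher there too (1.38). HBEGF, NRG1 and LRIG1 were picked after their values were seen. Of 15 tested genes of the family, 3 were at least 2-fold higher in HSC-1 and 4 in A431, beside 5.82% and 5.32%.

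Genes induced through ERK had a median difference of 0.477 over 27 tested, but their direction was mixed. DUSP6, a phosphatase that inactivates ERK, stood at 6.52, 6.55 and 6.48 in A431 and 8.21, 8.07 and 8.19 in HSC-1 (3.12-fold). IER3 was 2.60-fold higher in HSC-1, its gene being read by 11 probe sets of which the brightest was used. CCND1, cyclin D1, was 2.52-fold and EGR1, an early response factor, 2.38-fold higher in A431. In all, 15 of the 27 passed toward HSC-1 and 8 toward A431, beside 59.4% of all genes in either direction. At least 2-fold were 3 each, beside 5.82% and 5.32% of all genes. MYC was 1.80-fold higher in HSC-1.

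Among other receptor tyrosine kinases and their adaptors, 5 of 23 tested were at least 2-fold higher in HSC-1 and 4 in A431. The shares over all genes were 5.82% and 5.32%. MET, the hepatocyte growth factor receptor, was at 8.90, 8.81 and 8.75 in A431 and 10.09, 10.09 and 10.11 in HSC-1 (2.42-fold). EPHB4 was 3.0-fold higher in HSC-1. The insulin receptor substrate IRS2 was 3.48-fold higher in HSC-1 and its relative IRS1 1.62-fold higher in A431. The receptor that both serve, IGF1R, differed by -0.01 ± 0.05 (SE) and did not pass. PTK7 (2.83-fold) and MST1R, the receptor related to MET (2.66-fold), were higher in A431.

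Genes of the PI3K and mTOR pathway, on which everolimus acts, differed in both directions before the drug. Of 40 tested, 27 passed, beside 59.4% of all genes, 11 higher in HSC-1 and 16 higher in A431. Of these, 4 and 1 were at least 2-fold, beside 5.82% and 5.32%. The median difference was -0.121. The gene at least 2-fold higher in A431 was PHLPP1, a phosphatase that removes an activating phosphate from AKT. It read 8.86, 8.85 and 8.78 in A431 and 5.54, 5.38 and 5.56 in HSC-1, a 10.1-fold difference without overlap. Its relative PHLPP2 was 2.37-fold higher in HSC-1. SESN3, a sestrin that restrains mTOR complex 1 when amino acids are short, read 3.10, 3.29 and 2.95 in A431 and 6.91, 6.47 and 6.66 in HSC-1, so it lay below the array median in A431 alone. SGK1, a kinase downstream of mTOR complex 2, was 4.31-fold higher in HSC-1, also with A431 below the median. The mTOR kinase gene itself (MTOR) differed by -0.24 ± 0.05 (SE), the inhibitory subunits TSC1 and TSC2 by 0.60 ± 0.06 and -0.35 ± 0.06 (SE), and the translational repressor EIF4EBP1 by -0.44 ± 0.07 (SE), all past the test. PIK3CA and RPS6KB1 had no named probe set.

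**Figure D3:**
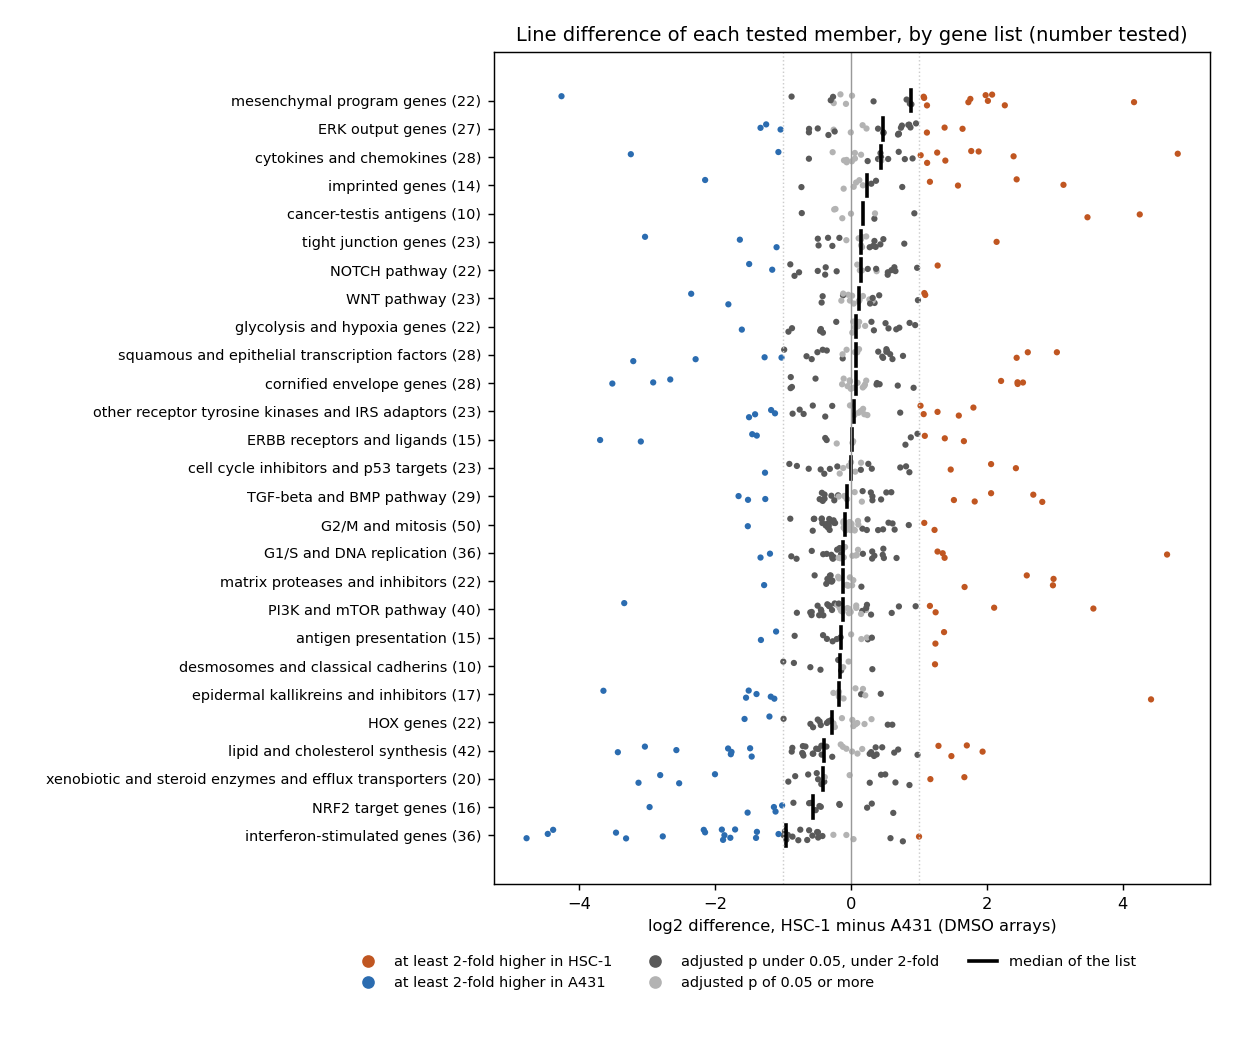
Log2 difference, HSC-1 minus A431, of each tested member of the 27 gene lists with at least 10 tested genes, one point per gene, with colours for at least 2-fold differences past an adjusted p of 0.05 and a black bar for the median. Medians run from -0.961 for interferon-stimulated genes to 0.877 for mesenchymal program genes, and most lists hold members on both sides of 0.

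Interferon-stimulated genes, which cells switch on through STAT and IRF factors when they sense interferon, had the lowest median of the 27 lists with at least 10 tested genes. Of 53 listed, 36 were tested and 33 passed, beside 59.4% of all genes: 30 higher in A431 and 3 in HSC-1. At least 2-fold differences numbered 16 toward A431 and 1 toward HSC-1, beside 5.32% and 5.82% of all genes, and the median was -0.961. BST2, tetherin, which holds budding virus at the cell surface, read 7.58, 7.80 and 7.60 in A431 and 2.89, 2.75 and 3.02 in HSC-1. GBP4, a guanylate-binding protein, read 8.15, 8.18 and 8.37 against 3.42, 4.20 and 3.68. IFI44 read 7.97, 7.88 and 7.81 against 3.88, 3.44 and 3.19. All 3 genes were therefore high on every A431 array and below the array median on every HSC-1 array, 27.3-fold, 22-fold and 20.9-fold apart. SAMD9L, an antiviral factor, was 11-fold higher in A431, and IFIT3, which takes part in blocking viral RNA, 6.82-fold. The signal was not uniform: ISG15 (-0.49) and the factor IRF9 (-0.64) differed less, IFIH1 (0.04) did not pass, and the IFITM1 (1.00) and IFITM3 (0.76) genes, near copies of each other, were higher in HSC-1. These 5 were picked after their values were seen. Of the list, 5 genes were above the array median in A431 alone and none in HSC-1 alone. Of 15 tested antigen presentation genes, 2 were at least 2-fold higher in each line, beside 5.82% and 5.32% of all genes. Their median was -0.153. TAPBPL was 2.50-fold higher in A431 and the aminopeptidase ERAP2 2.58-fold higher in HSC-1.

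Promoters of this group are shown because many of its members moved together. RefSeq promoters (GRCh38.p14, 250 bases before to 50 after the start) were searched on both strands for GAAANNGAAA, the core letters of the interferon-stimulated response element. The letters occurred in 19 of 29 tested list members with a promoter (65.5%), beside 280 of all 8086 tested genes with one (3.46%) and 4.38% of all 27305 genes with a promoter in the table. Within the list they occurred in 8 of the 13 at least 2-fold higher in A431 and in 11 of the 16 others, close shares of each. Stretches of 60 bases follow for 4 members higher in A431, in the direction of the gene, with every match in capitals (TTTCNNTTTC is the same motif on the opposite strand).
BST2, chr19:17405720-17405779, minus strand: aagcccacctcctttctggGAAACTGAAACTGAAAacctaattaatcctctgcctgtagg
IFI44, chr1:78649746-78649805, plus strand: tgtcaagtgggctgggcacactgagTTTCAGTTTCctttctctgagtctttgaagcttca
IFIT1, chr10:89392495-89392554, plus strand: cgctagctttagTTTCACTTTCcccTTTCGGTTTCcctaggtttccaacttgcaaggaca
DDX60, chr4:168318771-168318830, minus strand: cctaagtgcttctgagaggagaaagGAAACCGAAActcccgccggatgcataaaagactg
The BST2 stretch holds overlapping matches and that of IFIT1 a separate pair. The first base of the match nearest the start site lies at -124 in BST2, -18 in IFI44, -103 in IFIT1 and -53 in DDX60. IFIT1 (-2.17) and DDX60 (-3.31) were picked after their values were seen. Their HSC-1 means, 3.95 and 4.26, lay below the array median.

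Cytokine and chemokine genes ran mostly the other way. Of 28 tested, 16 passed toward HSC-1 and 3 toward A431, beside 59.4% of all genes in either direction. At least 2-fold were 8 and 2, beside 5.82% and 5.32% of all genes, and the median was 0.438. Besides IL24, the adhesion receptor ICAM1, a target of inflammatory signalling, was 5.25-fold higher in HSC-1 and IL32 3.67-fold. IL1RN, the natural antagonist of interleukin-1, was 9.44-fold higher in A431, at 8.28, 8.33 and 8.29 against 5.01, 5.18 and 4.99. Of this list 4 genes were above the array median in HSC-1 alone and 1 in A431 alone. Of 22 tested matrix proteases and inhibitors, 5 passed toward HSC-1 and 9 toward A431, beside 59.4% of all genes in either direction. Their median was -0.120. At least 2-fold higher were 4 in HSC-1 and 1 in A431, beside 5.82% and 5.32% of all genes. The collagenase MMP13 read 5.88, 6.02 and 5.79 in A431 and 8.82, 8.91 and 8.87 in HSC-1 (7.84-fold), MMP1 was 7.89-fold and ADAM12 6.0-fold higher with A431 below the median. RECK, an inhibitor of such proteases, was 3.18-fold higher in HSC-1 as well.

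The kallikreins, serine proteases that shed the outer skin layer and lie side by side on chromosome 19, held members with large differences in both directions. KLK5 read 5.74, 5.95 and 5.57 in A431 and 10.15, 10.20 and 10.16 in HSC-1. KLK13 read 7.96, 7.78 and 7.70 in A431 and 4.13, 4.03 and 4.36 in HSC-1, the reverse, a 12.5-fold difference. Its HSC-1 values lay close to the array median or below it. KLK7 and KLK10 were 2.92-fold and 2.84-fold higher in A431. Of 17 tested genes of the list, 6 were at least 2-fold higher in A431 and KLK5 alone was at least 2-fold higher in HSC-1. The shares over all genes were 5.32% and 5.82%.

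NRF2 target genes, enzymes of foreign compounds and steroids, and lipid genes passed toward A431 more often than toward HSC-1. All 16 tested NRF2 target genes passed, beside 59.4% of all genes, 13 toward A431 and 3 toward HSC-1. At least 2-fold were 5 and 0, beside 5.32% and 5.82% of all genes, and the median was -0.557. GPX2, a glutathione peroxidase, stood at 9.30, 9.25 and 9.23 in A431 and 6.36, 6.30 and 6.24 in HSC-1 (7.80-fold). The haem oxygenase HMOX1 was 2.87-fold, the glutathione reductase GSR 2.19-fold and the carbonyl reductase CBR1 2.16-fold higher in A431. Among enzymes of foreign compounds and steroids, GSTA4 (8.73-fold) and GSTM4 (4.0-fold), both glutathione transferases, and the retinoid genes CRABP2 (7.0-fold) and DHRS3 (5.77-fold) were higher in A431. Of the 20 tested, 11 passed toward A431 and 7 toward HSC-1, beside 59.4% of all genes in either direction. At least 2-fold higher were 4 in A431 and 2 in HSC-1, beside the same 5.32% and 5.82%. Lipid and cholesterol genes had a median of -0.396 over 42 tested. Past the test were 23 toward A431 and 13 toward HSC-1, beside 59.4% of all genes. Of these, 8 were at least 2-fold higher in A431 and 4 in HSC-1, again beside 5.32% and 5.82%. The acyl-CoA synthetases ACSL5 and ACSL1 were 10.8-fold and 8.18-fold higher in A431, and the sterol isomerase EBP 5.93-fold. HMGCS1, which makes the precursor of mevalonate, was 3.83-fold higher in HSC-1. Glycolysis and hypoxia genes divided evenly, 8 of 22 tested passing toward HSC-1 and 7 toward A431, beside 59.4% of all genes in either direction. Their median was 0.08. At least 2-fold different was 1, beside 5.82% and 5.32% of all genes: CA12, a carbonic anhydrase, 3.04-fold higher in A431.

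Cell cycle machinery differed in a few parts. The mitosis list had a median of -0.084, with 2 of 50 tested genes at least 2-fold higher in HSC-1 (CKAP2, 2.34-fold, and CDC25B, 2.11-fold) and 1 in A431 (PBK, 2.86-fold). Of 36 tested genes of the G1/S transition and replication, 4 were at least 2-fold higher in HSC-1 and 2 in A431. The counts of both lists stand beside 5.82% and 5.32% of all genes. D-type cyclins differed: CCND2 was high in HSC-1 and near the array median in A431, and CCND1 was well above the median in both and higher in A431. It read 9.68, 9.70 and 9.72 in A431 and 8.37, 8.42 and 8.33 in HSC-1. Their partner kinase CDK6 was 2.60-fold higher in HSC-1. CDKN2A, which encodes inhibitors of that kinase and of p53 degradation, read 3.83, 3.78 and 3.81 in A431 and 6.19, 6.08 and 6.44 in HSC-1. It was below the array median on every A431 array, with a 5.38-fold difference. RB1, the retinoblastoma gene on which the same kinase acts, was 2.77-fold higher in HSC-1.

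Developmental pathways held members on both sides. In the TGF-beta and BMP list, 5 of 29 tested were at least 2-fold higher in HSC-1 and 3 in A431, beside 5.82% and 5.32% of all genes. Those higher in HSC-1 were led by BMP2 (7.03-fold), the activin antagonist FST (6.42-fold), GDF15 (4.17-fold) and BMP4 (3.53-fold), all secreted proteins. BMP4 averaged 3.71 in A431, below the array median. The 3 at least 2-fold higher in A431 were the intracellular SMAD6 (-1.65), SMAD2 (-1.51) and SMAD4 (-1.26), of which the first pair was picked after its values were seen. In the WNT list the receptors FZD3 and FZD10 were 5.10-fold and 3.49-fold higher in A431. FZD1 and FZD2 were 2.13-fold and 2.11-fold higher in HSC-1. FZD10 averaged 4.30 in HSC-1 and FZD1 4.07 in A431, both below the array median. In the NOTCH list the ligand JAG1 was 2.42-fold higher in HSC-1 and DTX4 2.82-fold higher in A431, while the NOTCH1 receptor was 1.56-fold higher in HSC-1. Of 29 cancer-testis genes with a named probe set 19 lay too low to test, but HORMAD1 joined PASD1 as high in HSC-1 alone (11.2-fold). Of the imprinted genes PLAGL1 was 8.73-fold higher in HSC-1 and MEST 4.43-fold higher in A431.

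MicroRNA genes were read by probe sets that do not separate the mature microRNA from longer transcripts of the same locus. Of 442 tested, 15 were at least 2-fold higher in HSC-1 and 16 in A431, beside 5.82% and 5.32% of all genes. Members of the miR-181 family were higher in HSC-1 from a pair of loci. MIR181B1 on chromosome 1 read 4.16, 4.14 and 4.02 in A431 and 6.70, 6.75 and 6.84 in HSC-1 (6.29-fold), and MIR181B2 on chromosome 9 was 4.58-fold higher, both below the array median in A431 alone. MIR181A2 (1.89), beside MIR181B2, and the host transcripts MIR181A1HG (1.33) and MIR181A2HG (2.18) ran the same way. MIR181A2 and MIR181A2HG also lay below the array median in A431 alone. MIR181C (-0.07) and MIR181D (0.14) on chromosome 19 did not pass. Higher in A431 were MIR548K, at 8.07, 7.94 and 7.96 against 4.54, 4.55 and 5.05 (9.68-fold), and MIR196B, at 6.72, 6.83 and 7.03 against 3.72, 3.72 and 3.39 (9.53-fold), which lies among HOXA genes. MIR31 (-1.09) and its host MIR31HG (-1.09) were also higher in A431. The 7 miR-181 and miR-31 transcripts other than MIR181B1 and MIR181B2 were picked after their values were seen. Mature RefSeq sequences are shown 5′ to 3′ with the seed, bases 2 to 8, in capitals, because the miR-181 members share one seed and the A431 ones each have another.
hsa-miR-181b-5p: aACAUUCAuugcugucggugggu
hsa-miR-181a-5p: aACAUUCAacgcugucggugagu
hsa-miR-548k: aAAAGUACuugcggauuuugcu
hsa-miR-196b-5p: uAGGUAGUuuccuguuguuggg
hsa-miR-31-5p: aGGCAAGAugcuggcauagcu
The remaining microRNA genes with the largest differences were MIR3671, 6.13-fold higher in A431, and MIR1299, 6.11-fold higher in HSC-1.

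Some genes lay above the array median in 1 line alone, which does not show that they were undetected in the other. Above the array median on all 3 arrays of HSC-1 and below it on all 3 of A431 were 172 genes, 1.16% of the 14884 with a named probe set. The reverse held for 127, or 0.853%. Of the 172 and 127, 117 and 76 also passed the test with at least 2-fold, and the median differences were 1.39 and -1.18. The genes were chosen by their levels on the same arrays that the test used, which fixed their direction. These counts and medians are therefore not a result about them. With the 60th percentile of each array as the level the counts became 278 and 226. The highest in HSC-1 were EDN1, IL24, CEMIP, PASD1, HS3ST3B1 and UTRN, the cytoskeletal protein utrophin, at 7.06 against 3.81. The highest in A431 were CYB5A, TRIM31, GBP4, GPD2, IFI44 and BST2. Promoters with few CpG dinucleotides (an observed to expected ratio under 0.4) made up 23.1% of those of genes above the median in HSC-1 alone and 33.7% of those in A431 alone, beside 12.3% among genes above it on all 6 arrays. Zinc finger genes whose symbols start with ZNF were a group singled out after their values were seen. Of 372 tested, 35 were at least 2-fold higher in HSC-1 and 14 in A431, beside 5.82% and 5.32% of all genes. On chromosome 19, 21 of 162 tested ZNF genes were at least 2-fold higher in HSC-1 and 8 in A431. A run of 21 neighbouring tested genes there, from GMIP to ZNF254, had a median difference of 1.09. Many ZNF genes are near copies, and how far their probe sets share signal was not tested.

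Neighbouring genes differed together at several places in the genome, which was examined through gene order alone and without a test. Over 10146 runs of 21 neighbouring tested genes, the median difference was -0.43 at the 5th percentile and 0.593 at the 95th, and it reached -1.304 and 1.499. The run highest in HSC-1 was on chromosome 5, from TARS1 to RIMOC1, and the run highest in A431 on chromosome 18, from NARS1 to CNDP2 with PHLPP1 in the middle. On chromosome 18, 20.1% of 149 tested genes were at least 2-fold higher in A431. On chromosome 13, where RB1 and IRS2 lie, 18.5% of 178 were at least 2-fold higher in HSC-1, as were 14.5% on chromosome 5, 14.1% on chromosome 7 and 13.6% on chromosome 9. The shares over all genes were 5.32% toward A431 and 5.82% toward HSC-1.

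Beside loci known from squamous carcinoma, 10 tested genes on each side were read. Their counts at least 2-fold different stand beside 5.82% of all genes toward HSC-1 and 5.32% toward A431. Around SMAD4, on chromosome 18, the median was -0.954 and 9 of 20 genes were at least 2-fold higher in A431 and 1 in HSC-1. SMAD4 itself, a TGF-beta effector and tumour suppressor, read 8.96, 8.87 and 8.83 in A431 and 7.57, 7.60 and 7.70 in HSC-1 (2.40-fold). Around TERT, the telomerase gene, the median of 19 genes was 1.054, with 11 at least 2-fold higher in HSC-1 and none in A431. TERT itself differed 1.96-fold. The neighbours of MET had a median of 0.992, with 9 of 20 at least 2-fold higher in HSC-1 and none in A431. Those of YAP1, the growth regulator (2.27-fold higher in HSC-1), had a median of 0.934. At least 2-fold higher in HSC-1 were 9 of 20, among them MMP1, MMP13 and SESN3, and 2 were so in A431. Near CCND1 the median was only -0.236, yet 6 of 20 neighbours were at least 2-fold higher in A431 and 1 in HSC-1. Those higher in A431 were led by MYEOV (15.7-fold). MIR548K (-3.27), the cortactin gene CTTN (-2.23) and FADD (-2.14) were among them. MYEOV averaged 4.21 in HSC-1, below the array median. Most neighbours of CDKN2A ran against it. The median of the neighbours was -0.496 and 6 of 20 were at least 2-fold higher in A431, led by HACD4 (7.77-fold). At least 2-fold higher in HSC-1, as was CDKN2A, were 2 of 20, the adjoining CDKN2B-AS1 (1.52) and LINC01239 (1.37) on the same side. HACD4 averaged 3.49 in HSC-1, CDKN2B-AS1 3.38 in A431 and LINC01239 2.97 in A431, all below the array median. SOX2 also stood apart from its neighbours, none of which differed at least 2-fold, with a median of -0.236. Around EGFR the median was 0.403 (0.689 over 5 genes on each side) and 3 of 20 were at least 2-fold higher in HSC-1 and none in A431. The medians near TP63, MYC, ERBB2 and CD274 lay between -0.135 and 0.034, although that near CD274 was -0.535 over 5 genes on each side. CTTN, FADD, CDKN2B-AS1 and LINC01239 were picked after their values were seen, and copy number was not measured.

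**Figure D4:**
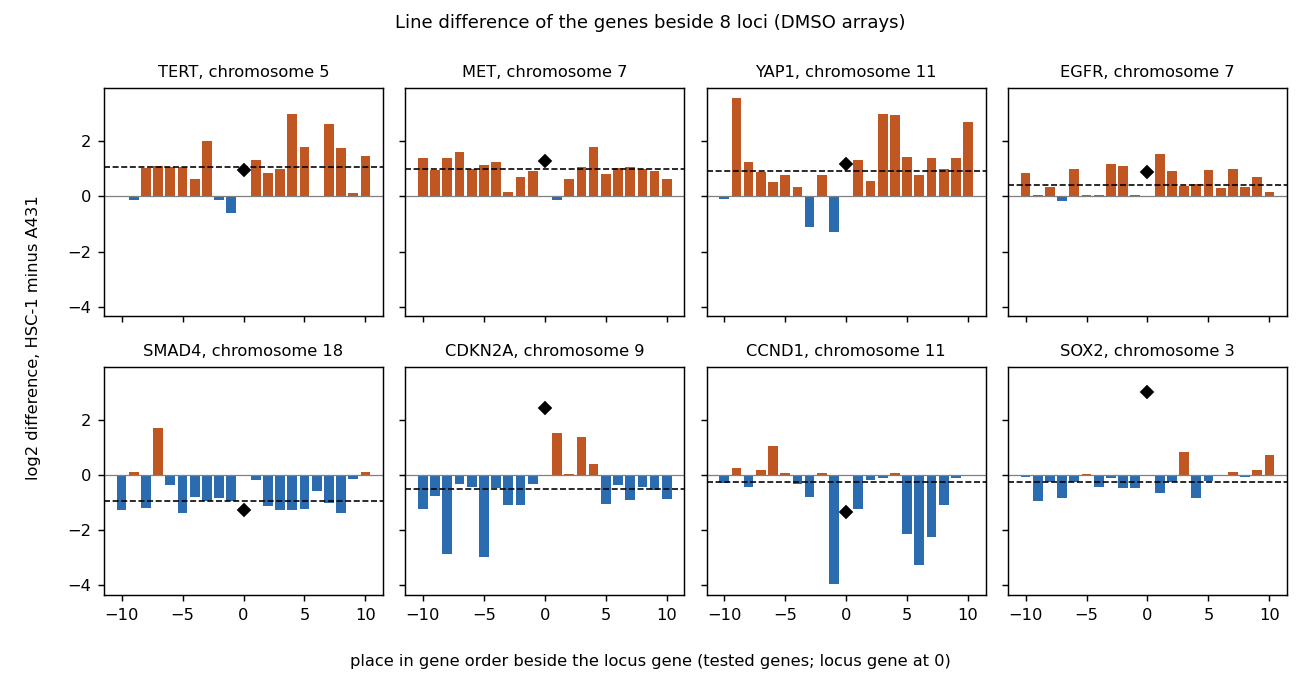
Log2 difference, HSC-1 minus A431, of the 10 tested genes on each side of 8 loci in gene order (bars, orange above 0 and blue below), with the locus gene as a black diamond at place 0 and the median of the neighbours as a dashed line. Bars around TERT, MET and YAP1 are mostly above 0 and those around SMAD4 mostly below, while CDKN2A and SOX2 lie away from the median of their neighbours.

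Of 47 measured markers of other cell types, 23 exceeded the median of every A431 array and 19 that of every HSC-1 array. On all 6 arrays 18 did so, beside at least 9300 of the 14884 genes with a named probe set. These 18 were endothelial CLDN5, the fibroblast gene THY1, the melanocyte genes SOX10 and MITF, neural SYP and CHGA, the leukocyte genes CD68, CSF1R and NKG7, and 9 genes of glandular and mucosal epithelium (TFF1, TFF3, CEACAM1, CEACAM5, CEACAM6, SPDEF, FOXA1, FOXA2 and CDX2). SOX10 averaged 5.71 in A431 and 5.58 in HSC-1, MITF 5.50 and 5.84, and FOXA2 5.38 and 6.39. The part of other cell types in the results was not tested. Below the median on all 6 arrays were 21 markers. They included endothelial PECAM1, VWF, KDR and EMCN, the fibroblast genes DCN and DPT, and the melanocyte genes MLANA, TYR, TYRP1 and KIT. The others were neural CHGB, STMN2, UCHL1 and S100B, the leukocyte genes LYZ and CD1A, and glandular AGR2, AGR3, KRT20, ANPEP and CEACAM7. The mean level over the 5 measured endothelial markers was between 3.74 and 3.95 on the A431 arrays and between 3.84 and 3.95 on the HSC-1 arrays. Over 7 melanocyte markers it was between 4.03 and 4.16 and between 4.10 and 4.13, and over 9 neural ones between 4.01 and 4.16 and between 4.21 and 4.25. The 4 fibroblast markers averaged between 3.64 and 3.71 in A431 and between 3.14 and 3.30 in HSC-1, where LUM, a matrix proteoglycan, was 4.14-fold lower and below the median. Among 6 leukocyte markers, with means between 5.32 and 5.38 and between 4.76 and 4.8, CD68, a lysosomal protein that many cells make, was 6.57-fold higher in A431, while LYZ was below the median in both. The 16 measured markers of glandular and mucosal epithelium averaged between 4.85 and 4.91 and between 4.71 and 4.77. PIGR, the receptor that carries immunoglobulins across mucosa, was 8.32-fold higher in A431, with HSC-1 below the median. FOXA1 was 4.13-fold higher in A431 and CEACAM5 2.88-fold higher in HSC-1.

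The arrays of everolimus-treated cells share the normalization, the level filter, the probe set choice and the residual variance with the DMSO arrays, and were compared line against line in the same fit. There 6289 genes passed an adjusted p of 0.05. Of the 1183 genes at least 2-fold different under DMSO, 1182 had the same sign, 1178 also passed and 944 were again at least 2-fold different. Across genes the difference between the lines under the 2 treatments correlated with r = 0.941, a description over genes that are not independent replicates. All 24 of the largest genes kept their direction, with differences of at least 2.99 in size. Some genes named above moved: KRT13, higher in A431 by 1.28 under DMSO, was higher by only 0.24 under everolimus, the difference of MMP1 changed from 2.98 to 1.39 and that of PIGR from -3.06 to -1.30.

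**Figure D5:**
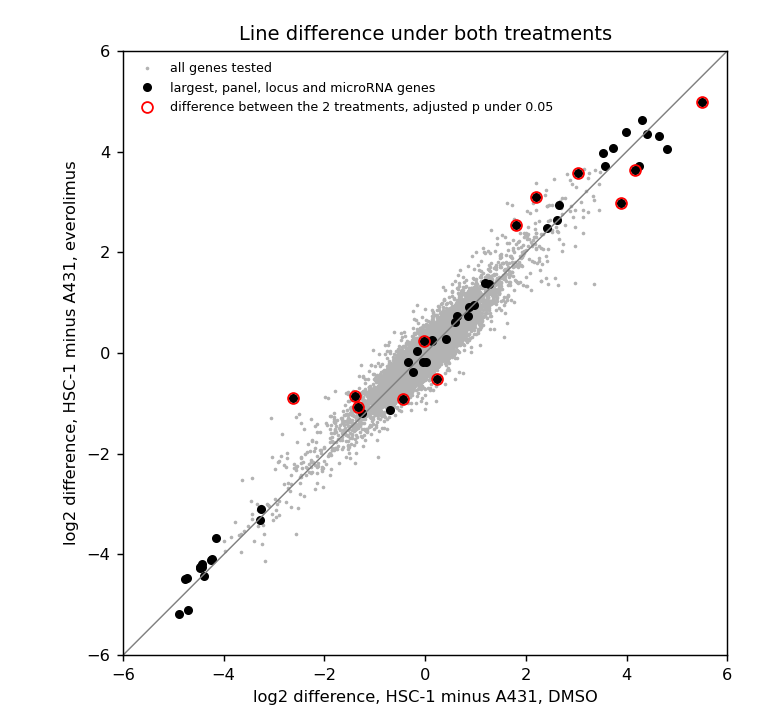
Log2 difference between the lines, HSC-1 minus A431, under DMSO (horizontal) and everolimus (vertical), with 1 grey point per tested gene and black points for the largest, panel, locus and microRNA genes. Points follow the diagonal, and red circles mark the 12 black points whose difference changed between the treatments at an adjusted p under 0.05, such as CPA4 and MIR3671.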

How the data were processed

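The deposited table held log2 values for probe sets. The submitters' processing notes name RMA and Affymetrix Expression Console as the tools of the authors, without versions, and the build behind the probe sets is not given in the sources used here. Whole-transcript GeneChip kits turned the RNA into biotin-labelled sense cDNA, per the labels. Since RMA gives all arrays 1 distribution, unequal RNA content of the cells cannot be seen. Of 53617 probe sets, 16098 had 1 gene symbol and 37519 none. All 16098 matched the RefSeq gene table (GRCh38.p14) by Entrez identifier. It served for current symbols and gene order only. For each of 14884 genes, 779 of which had several probe sets, its brightest probe set, by the mean of 12 arrays, stood for it. Of 66 such genes at least 2-fold different, 4 had probe sets of opposite sign. Genes with at least 3 of 12 arrays above their own array median were tested. The 12 arrays were fitted as 4 group means with lmFit and eBayes (intensity trend) in limma 3.58.1 under R 4.3.3, with 8 residual degrees of freedom. The fit was tested on simulated data. The number of arrays limits the precision, with a median standard error of 0.0937. Named genes were the 12 largest in each direction without overlap, up to 4 from each of 37 lists, and a panel. Added were up to 6 of the highest genes above the array median in 1 line alone and up to 6 microRNAs. The 13 loci with their most different neighbour completed them, and not all named genes are reported here. The members and lists were chosen with earlier results of these data known. Expression of genes of the sex chromosomes that report on a donor is not given. Alternatives covered the filter, the variance model, array weights, scaling, probe set choice, replicate numbers and leaving out arrays.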

Additional observations from a re-analysis of the deposited data

Results flagged for a closer look

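Whether the difference between the lines changed with everolimus was tested in limma for 55 genes (the largest, panel, locus and microRNA genes), with adjustment over all genes tested. For 12 of them it did, and over all tested genes 1118 passed. The line difference (HSC-1 minus A431) of CPA4 changed by -0.914, from 3.90 to 2.99 (adjusted p = 1.2e-05). That of EDN1 changed by -0.516, from 5.50 to 4.98 (adjusted p = 0.00725), and that of TNC by -0.521, from 4.16 to 3.64 (adjusted p = 0.00495). CD274, the PD-L1 gene, changed by -0.747, from 0.23 to -0.51 (adjusted p = 0.00261). Its 0.23 under DMSO missed the threshold (adjusted p = 0.0616, limma) but passed in 4 of 16 alternative fits, at 0.0348 with quantile normalization applied again, 0.0315 with median centring, 0.0356 without A431 replicate 1 and 0.0452 without HSC-1 replicate 1, and over all 16 the adjusted p ran from 0.0315 to 0.313. EIF4EBP1 changed by -0.476, from -0.44 to -0.91 (adjusted p = 0.00462). ERBB3 changed by 0.529, from -1.39 to -0.86 (adjusted p = 0.0037), and CCND1 by 0.264, from -1.33 to -1.07 (adjusted p = 0.00531). For IGF1R the change was 0.251, from -0.01 to 0.24 (adjusted p = 0.0269). SOX2 changed by 0.540, from 3.03 to 3.57 (adjusted p = 0.0173), and IRS2 by 0.752, from 1.80 to 2.55 (adjusted p = 0.00109). The microRNA gene MIR181B2 changed by 0.913, from 2.20 to 3.11 (adjusted p = 0.00201), and MIR3671 by 1.724, from -2.62 to -0.89 (adjusted p = 0.00378). For 3 genes picked after their values were seen it also passed: KRT13 changed by 1.033, from -1.28 to -0.24 (adjusted p = 1.9e-06), MMP1 by -1.591, from 2.98 to 1.39 (adjusted p = 0.000106), and PIGR by 1.759, from -3.06 to -1.30 (adjusted p = 5.7e-06). How A431 and HSC-1 each responded to the drug is not analysed here. Groups of 3 arrays were not screened for outlying arrays.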

How the results depend on the processing

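The 6303 genes past an adjusted p of 0.05 became between 5922 and 6025 when 1 array was left out and 6212 with the replicate number as a block. The replicate block left 618 and 565 genes at least 2-fold higher in HSC-1 and A431. Same-numbered arrays of the lines showed deviations from their group means that correlated at 0.075, -0.015 and 0.044, so the numbers were not taken to pair cultures, and the block moved no count by over 1.5 times. Without 1 array the counts at least 2-fold ranged from 602 to 641 and from 558 to 580. Tested against 1.5-fold, 878 and 835 passed. The counts of genes above the level in 1 line alone depended most on that level. With the 60th percentile they were 278 for HSC-1 and 226 for A431, with the 70th 397 and 348, and with line means 393 and 331. With 1 array left out, a setting chosen after seeing the data, they ranged from 187 to 212 and from 146 to 165. With 5 neighbours on each side the medians were 0.689 at EGFR, -0.385 at CDKN2A, 0.767 at YAP1, -0.359 at SOX2, -0.167 at TP63, 0.875 at MET and -0.535 at CD274. Of 175 named genes under 16 alternatives each, 2773 of 2797 values kept direction and call. The exceptions in direction had not passed the test. IGF1R was 0.0024 with quantile normalization applied again and 0.0101 with median centring, KRT19 -0.0173 with quantile normalization, and VIM 0.202 with the mean of probe sets. With 1 array left out IGF1R ranged from -0.0458 to 0.0104, KRT8 from -0.158 to 0.102, KRT19 from -0.170 to 0.216 and VIM from -0.277 to 0.0044. KRT5 missed the threshold without the intensity trend (adjusted p = 0.0838, limma) and without 4 of the 6 arrays in turn. No scaling moved the median of all genes by more than 0.025.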
